A study of Mus musculus with 16 samples.

Results

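The genes described here are 41 listed genes of mitosis, covering the mitotic spindle, the spindle checkpoint and cytokinesis together with the cyclins, kinases and chromosome proteins that act with them. They were chosen by symbol from a table of raw counts per gene and not by a rule on measured values, but with earlier results of these data known. All 41 were found among its 55291 genes. None was removed by the filter on low counts, which left 22749 genes to test, and the lowest count of any of the 41 in any library was 2674. RNA came from bead-sorted LSK cells of the bone marrow, the Lin-cKit+Sca-1+ population that holds stem cells and early progenitors, of 16 individual C57BL/6 mice, 4 of each genotype. Asxl1Tg mice carried Asxl1Y588XTg, a transgenic allele with a premature stop codon in Asxl1, whose protein acts on chromatin. Srsf2P95H mice carried the P95H change in 1 of the copies of the splicing factor gene Srsf2 (Srsf2P95H/+), DM mice carried both (Asxl1Y588XTg;Srsf2P95H/+), and WT mice carried neither. The sources used here state no age, sex, batch, transgene promoter or Cre driver. The series title puts the study's question as the effect of the Srsf2 mutation on leukaemia development in mice with the transgene, which makes DM against Asxl1Tg the comparison closest to it.

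Cells enter mitosis when the kinase CDK1, bound to cyclin A or cyclin B, is activated, and Polo-like and Aurora kinases then build the spindle. The spindle checkpoint holds back the anaphase-promoting complex until every kinetochore is attached, after which securin and cyclin B are degraded, sister chromatids separate and the cell divides. Transcripts of these genes accumulate in G2 and M phase in dividing cells and are kept low in resting cells, so they are widely used as markers of proliferation. Most long-term haematopoietic stem cells are quiescent, whereas the multipotent progenitors within the LSK population divide more often.

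Library totals were 85.7 to 102.2 M counts (megacounts) in Asxl1Tg, 92.2 to 104.8 M in Srsf2P95H, 113.8 to 127.6 M in DM and 82.99 to 124.0 M in WT. Levels are given as CPM, counts per megacount of library after TMM scaling, with the SD over 4 mice. Kit was at 699 to 1211 CPM, Cd34 at 738 to 1002 CPM and Ly6a, the Sca-1 gene, at 23.2 to 54.3 CPM over the 16 libraries, so the defining genes of LSK cells were detected throughout. Transcripts of granule proteins were abundant as well, with Mpo at 772 to 4459 CPM. Library WT 4 stood apart, with the highest summed B lineage level (131.6 CPM, against 25.2 to 47.6 CPM in the other 15 libraries). It also had the highest eosinophil level (1546 CPM, against 32.4 to 464 CPM) and the lowest level of immediate-early genes (548.4 CPM). Immediate-early genes, whose transcripts rise during cell handling, were highest in Srsf2P95H 2, at 10038 CPM. They were also high in WT 3 (9662 CPM), Asxl1Tg 2 (7192 CPM) and WT 2 (7175 CPM), and ran from 1311 to 2359 CPM in DM. Xist was above 100 CPM in 5 libraries, namely Asxl1Tg 3, Srsf2P95H 2, Srsf2P95H 3, DM 1 and WT 1. In these bulk samples, fewer cells in mitosis and less mitotic RNA per cell cannot be told apart.

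By GENCODE M21 annotation (GRCm38), the 41 genes are protein-coding and lie on 16 chromosomes, with merged exons of 1.531 to 15.433 kb. Per kilobase of exon, Mki67 and Top2a had the highest levels. Mki67 encodes a protein that coats mitotic chromosomes (chromosome 7, 135689784 to 135716361) and was at 103, 111, 107 and 107 CPM per kb in Asxl1Tg, Srsf2P95H, DM and WT. Top2a encodes DNA topoisomerase II alpha, which untangles sister chromatids (chromosome 11, 98992943 to 99024189), and was at 91.8, 114, 112 and 91.5 CPM per kb. The lowest was Ndc80, a kinetochore protein that grips microtubules, at 5.16, 6.08, 6.23 and 5.64 CPM per kb. Exon bases were shared with another annotated gene in 11 of the 41, and over 10 percent of them in 4: Kif20a (29.3% with Cdc23), Ube2c (22.8% with Tnnc2), Ccna2 (12.5% with Exosc9) and Prc1 (11.1% with Rccd1), each on opposite strands. The strand setting of the counting is not given in the sources used here, so counts of these 4 may hold reads of the partner. Pseudogenes of the B-type cyclins held few counts (14 to 44 for Ccnb1-ps and 204 to 520 for Ccnb2-ps in a library).

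Promoters are shown for 6 genes because shared promoter motifs are a known feature of G2 and M phase genes. Whether the motifs have a part in the variation between libraries, described further on, was not tested. RefSeq promoter windows on GRCm38.p6, running from 250 bases before to 50 bases after the start, were found for 34 of the 41, and a later start was left unused for 3 of these with more than 1 listed. The windows were searched on both strands, overlapping matches included, for TTTGAA, a form of the cell cycle genes homology region (CHR) that the MuvB complex binds, and for CCAAT, the box bound by NF-Y. TTTGAA was found in 25 of the 34 windows (73.5%), against 18.1% of 27025 windows of all genes. CCAAT was found in 27 (79.4%), against 37.9% of all genes, and both were found in 22 (64.7%), against 7.1%. In the 250 bases before the start alone, TTTGAA was found in 11 (32.4%), against 16.3%, CCAAT in 27 (79.4%), against 34.5%, and both in 10 (29.4%), against 5.7%. In the 34 windows the median CCAAT match lay 68 bases before the start and the median TTTGAA match 2 bases after it. The first 3 stretches below belong to the genes called in DM against WT, and the other 3 to genes with several matches, Cdk1, Ccnb2 and Top2a. Each runs from 120 bases before to 30 bases after the start, 5′ to 3′ on the gene's strand, with matches to either motif on either strand in capitals.
Nuf2 (chr1:169531435-169531584, minus strand): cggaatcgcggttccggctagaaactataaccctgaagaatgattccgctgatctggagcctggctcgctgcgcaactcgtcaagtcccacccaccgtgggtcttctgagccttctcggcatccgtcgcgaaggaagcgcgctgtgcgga
Mad2l1 (chr6:66535101-66535250, plus strand): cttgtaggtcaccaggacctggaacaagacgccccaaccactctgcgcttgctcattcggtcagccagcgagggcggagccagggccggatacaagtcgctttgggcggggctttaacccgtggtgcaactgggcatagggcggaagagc
Birc5 (chr11:117849117-117849266, plus strand): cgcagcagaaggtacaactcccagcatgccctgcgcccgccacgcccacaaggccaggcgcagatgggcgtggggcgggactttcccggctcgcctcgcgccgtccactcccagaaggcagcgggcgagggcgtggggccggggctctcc
Cdk1 (chr10:69352883-69353032, minus strand): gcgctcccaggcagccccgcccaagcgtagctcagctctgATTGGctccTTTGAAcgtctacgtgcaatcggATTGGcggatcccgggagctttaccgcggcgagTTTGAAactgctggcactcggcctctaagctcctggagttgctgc
Ccnb2 (chr9:70421525-70421674, minus strand): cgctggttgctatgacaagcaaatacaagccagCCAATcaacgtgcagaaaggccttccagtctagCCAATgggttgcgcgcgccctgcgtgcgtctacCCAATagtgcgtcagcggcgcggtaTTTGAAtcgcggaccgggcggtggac
Top2a (chr11:99024160-99024309, minus strand): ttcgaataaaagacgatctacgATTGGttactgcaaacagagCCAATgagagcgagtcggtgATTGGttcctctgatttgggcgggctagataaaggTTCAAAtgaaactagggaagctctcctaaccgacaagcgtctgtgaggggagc
Neither letter string occurred anywhere in the windows of Nuf2, Mad2l1, Birc5 and Nusap1. The Mad2l1 stretch ends before the GENCODE start of that gene at 66535390, so its window depends on which start is taken. The Cdk1 stretch holds 2 matches of each motif, the Ccnb2 stretch 1 TTTGAA and 3 CCAAT matches, and the Top2a stretch 1 TTTGAA (as its reverse complement) and 3 CCAAT matches. No factor binding was measured in these samples.

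Across genotypes the mean levels formed 2 pairs. The summed level of the 41 genes was 5364 ± 617 CPM in Asxl1Tg, 6260.4 ± 613 CPM in Srsf2P95H, 6225 ± 678 CPM in DM and 5368 ± 487 CPM in WT (SD, n = 4), so Srsf2P95H and DM lay close together, as did Asxl1Tg and WT. The highest group mean was that of DM for 21 genes, Srsf2P95H for 19 and WT for 1, the centromeric histone gene Cenpa. The lowest was that of WT for 27 genes and Asxl1Tg for 14. Within a genotype the highest library exceeded the lowest by a median of 1.37-fold in Asxl1Tg, 1.31-fold in Srsf2P95H, 1.36-fold in DM and 1.27-fold in WT. These spans within a genotype exceeded the median differences of Srsf2P95H and of DM from WT, which were 0.24 and 0.26 on the log2 scale.

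**Figure D1:**
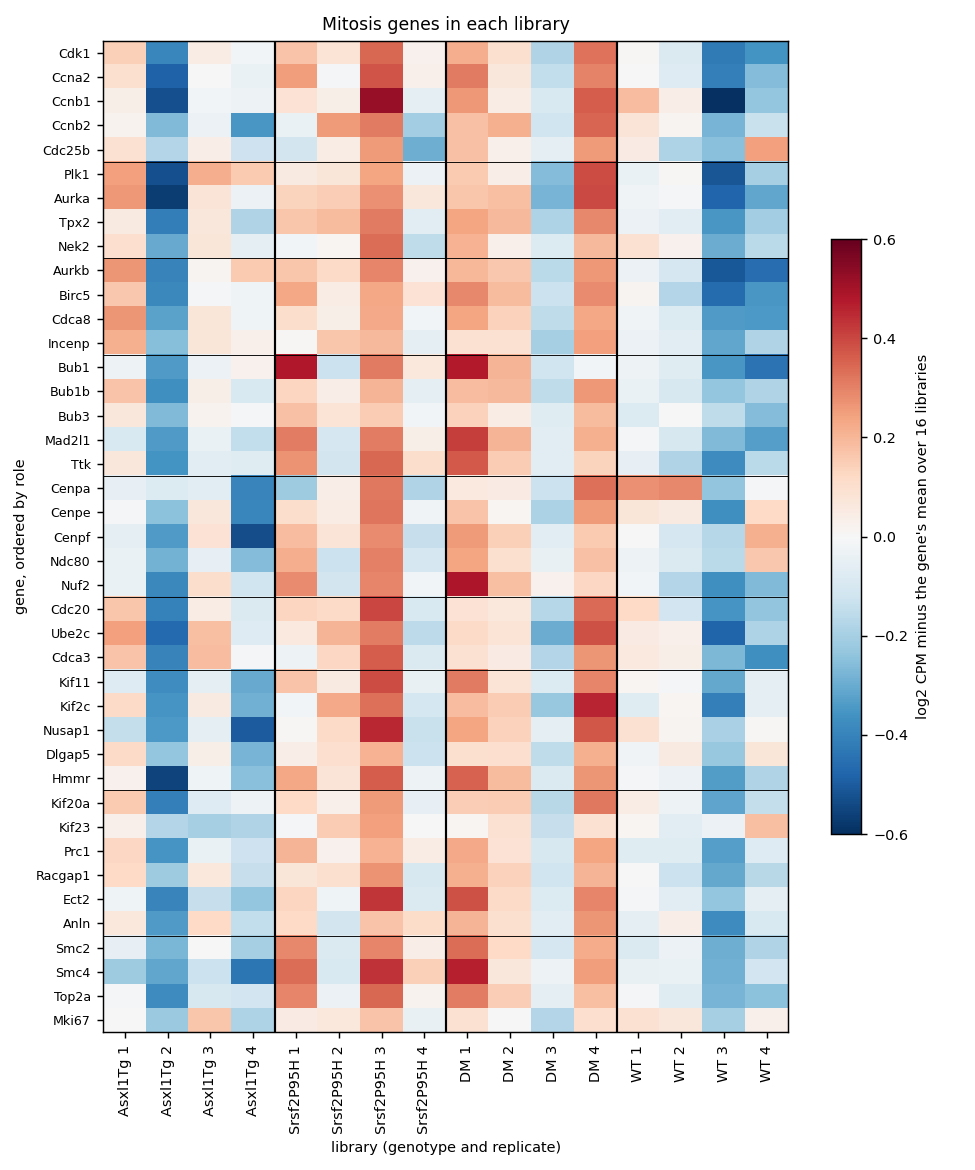
Level of each of the 41 mitosis genes (rows, ordered by role) in each of the 16 libraries (columns), as log2 CPM minus the gene's mean over the 16 libraries. Asxl1Tg 2 is the lowest library of its group for 33 genes, DM 3 for 41 and WT 3 for 35, and Srsf2P95H 3 is the highest of its group for 39.

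In Srsf2P95H against WT, 40 of the 41 genes had a positive log2 fold change, with a median of 0.24, and none passed the test at an adjusted p under 0.05. Over all 22749 genes the median was -0.05, 45% were positive, 0.264% were called higher and 0.242% lower. At an unadjusted p under 0.05, 20 of the 41 were higher and 0 lower, against 14.2% of all genes higher and 11.1% lower. DESeq2 called 4 (Aurkb, Birc5, Ttk and Top2a), with 9.56% called higher of the 16979 genes to which it gave an adjusted p. Limma-voom called Ttk alone, with 4.4% of all genes called higher. The smallest p was that of Birc5 (survivin), the subunit that brings the chromosomal passenger complex to centromeres. Birc5 was at 64.7, 56.8, 64.7 and 58.3 CPM in Srsf2P95H mice 1 to 4, against 55.6, 48.7, 39.9 and 43.2 CPM in WT mice 1 to 4 (log2 fold change 0.38, SE 0.12, edgeR adjusted p = 0.0789). Every Srsf2P95H value lay above every WT value, which was also so for Cdk1, Aurka, Aurkb, Cdca8 and Prc1 and thus for 6 of the 41, against 8.33% of all genes.

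None of the kinases that drive mitosis passed the edgeR test, and the groups overlapped for some of them. Cdk1, the entry kinase, was at 127, 119.7, 143 and 115 CPM in Srsf2P95H mice, against 114, 106, 84.3 and 88.1 CPM in WT mice (log2 fold change 0.36, SE 0.13, adjusted p = 0.0986). Aurkb, the kinase of the passenger complex that corrects faulty attachments, was at 104, 100.4, 114 and 94.5 CPM in Srsf2P95H mice, against 90.4, 86.6, 65.3 and 67.7 CPM in WT mice (log2 fold change 0.41, SE 0.14, adjusted p = 0.0862). Ttk, the checkpoint kinase MPS1, was at 47.6, 36.5, 50.1 and 42.5 CPM in Srsf2P95H mice, against 38.1, 34.8, 30.4 and 35.3 CPM in WT mice (log2 fold change 0.35, SE 0.11, adjusted p = 0.0840). Srsf2P95H 2 lay within the WT range for Ttk, and without that library 4 members passed the test in this comparison. The share of all genes called without that library is not given here. Plk1, the Polo-like kinase of centrosomes and kinetochores, was at 60.5, 61.3, 68.6 and 56.8 CPM in Srsf2P95H mice, against 56.6, 58.5, 40.9 and 50.8 CPM in WT mice, with overlap (log2 fold change 0.26, adjusted p = 0.337).

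By role, the median log2 fold change in Srsf2P95H against WT was 0.33 for the 4 genes of the passenger complex (Aurkb, Birc5, Incenp, its scaffold, and Cdca8, borealin), 0.32 for the 5 checkpoint genes and 0.30 for the 4 chromosome structure genes. It was 0.29 for the entry genes, 0.29 for the mitotic kinases and their partners and 0.24 for the group of Cdc20, Ube2c and Cdca3. For spindle motors and microtubule-binding proteins it was 0.24, for midzone and cytokinesis genes 0.21 and for centromere and kinetochore genes 0.12. Within these, Mki67 was at 1106, 1118, 1205 and 1037 CPM in Srsf2P95H mice, against 1140.4, 1123, 931 and 1092 CPM in WT mice (log2 fold change 0.06, SE 0.10, and -0.051 when scaled by library size only). Top2a, in the same role, was at 1117, 891, 1159.6 and 927 CPM in Srsf2P95H mice, against 909.6, 868, 753 and 769.8 CPM in WT mice (log2 fold change 0.31, SE 0.11, adjusted p = 0.0938). Values near zero were also those of Cdc25b, a phosphatase that activates CDK1 (0.01), and of Kif23, a motor of the spindle midzone (0.08), while Cenpa was at -0.09.

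In DM against WT, 3 of the 41 genes rose and none fell, and 39 had a positive log2 fold change, with a median of 0.26. Over all genes tested the median was -0.02, 47.6% were positive, 4.65% were called higher and 4.73% lower. The 3 genes were Nuf2, Mad2l1 and Birc5, a microtubule-binding kinetochore protein, a checkpoint protein and a passenger complex subunit. At an unadjusted p under 0.05, 21 of the 41 were higher and 0 lower, against 15.2% of all genes higher and 15.4% lower. DESeq2 called 4 members (the same 3 and Ttk), against 9.22% higher of the 20496 genes to which it gave an adjusted p. Limma-voom, run with a quality weight for each library, called 10 (Aurkb, Birc5, Bub1b, Mad2l1, Ttk, Nuf2, Prc1, Racgap1, Smc2 and Top2a), against 9.24% of all genes higher.

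Nuf2, which forms the NDC80 complex with Ndc80 (chromosome 1, 169497934 to 169531464), was at 84.2, 68.1, 61.2 and 65.5 CPM in DM mice 1 to 4, against 59.4, 53.3, 46.6 and 49.99 CPM in WT mice 1 to 4. All 4 DM values lay above all 4 WT values, which held otherwise for the condensin gene Smc4 alone, against 9.28% of all genes. The difference was 1.33-fold (log2 fold change 0.42, SE 0.12, edgeR adjusted p = 0.0445). Mad2l1 encodes MAD2, the inhibitor of the anaphase-promoting complex (chromosome 6, 66535390 to 66547220), and was at 146, 126, 104 and 127 CPM in DM mice, against 109, 102, 91.1 and 86.9 CPM in WT mice. Only DM 3 lay within the WT range, below WT 1 (log2 fold change 0.37, SE 0.11, adjusted p = 0.0480). Birc5 (chromosome 11, 117849251 to 117855743) was at 67.2, 62.7, 50.4 and 66.9 CPM in DM mice, against the WT values given above, and again only DM 3 lay within the WT range (log2 fold change 0.40, SE 0.12, adjusted p = 0.0483).

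These 3 calls lay close to the threshold. Their adjusted p was 0.0212 to 0.151 for Nuf2, 0.0233 to 0.156 for Mad2l1 and 0.0185 to 0.133 for Birc5 over 26 alternatives. No member was called without WT 2, WT 3, WT 4, DM 1, DM 2, DM 4 or Asxl1Tg 4, and 15 were called without DM 3. None was called with scaling by library size only or under a filter of 1 CPM in 4 libraries. The share of all genes called in each of these runs is not given here. The changes in count thus cannot be read as particular to the mitosis genes. Without both WT 4 and Srsf2P95H 2, the median log2 fold change of the 41 genes was 0.25 in DM and 0.25 in Srsf2P95H, each against WT, and with Xist status as a covariate it was 0.26 and 0.19.

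Ordered by role in DM against WT, the median log2 fold change was 0.35 in the passenger complex, 0.34 among checkpoint genes, 0.30 in chromosome structure, 0.29 among mitotic kinases and partners and 0.28 among entry genes. It was 0.25 in midzone and cytokinesis, 0.25 among spindle motors and microtubule-binding proteins and 0.22 in the group of Cdc20, Ube2c and Cdca3. Among centromere and kinetochore genes it was 0.13. These are Nuf2, given above, Cenpe (0.09, a kinetochore motor), Cenpf (0.13), Ndc80 (0.15) and Cenpa (-0.01). All 5 checkpoint genes had an unadjusted p under 0.05, with log2 fold changes of 0.37 for Bub1, 0.27 for Bub1b (BUBR1), 0.20 for Bub3, 0.37 for Mad2l1 and 0.34 for Ttk. Bub1b was at 169, 170.1, 134 and 178 CPM in DM mice, against 145, 139, 127 and 131 CPM in WT mice, with DM 3 alone within the WT range (adjusted p = 0.108).

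Among the entry genes, Cdk1 was at 132, 121, 99.9 and 141 CPM in DM mice, with DM 3 alone within the WT range (log2 fold change 0.33, adjusted p = 0.0970). Ccnb1, cyclin B1, was at 94.3, 81.2, 74.1 and 101 CPM in DM mice, against 89.8, 81.0, 51.4 and 67.1 CPM in WT mice, and the groups overlapped (log2 fold change 0.28, SE 0.17, adjusted p = 0.290). The values for cyclin A2 (Ccna2), cyclin B2 (Ccnb2) and Cdc25b were 0.32, 0.24 and 0.13. Among the kinases, Plk1 was at 65.1, 60.0, 48.7 and 76.5 CPM in DM mice (log2 fold change 0.28, adjusted p = 0.263), and Aurkb was at 106, 104, 83.1 and 111 CPM (log2 fold change 0.38, adjusted p = 0.0768). Aurka, the spindle pole kinase, its activator Tpx2 and the centrosome kinase Nek2 had log2 fold changes of 0.33, 0.30 and 0.17. Neither Top2a nor Mki67 passed the edgeR test. Top2a was at 1129, 1011, 875 and 1036 CPM in DM mice (log2 fold change 0.30, adjusted p = 0.0807) and Mki67 was at 1139.7, 1071, 949 and 1146 CPM (adjusted p = 0.972). The log2 fold change of Mki67 was 0.01 with an SE of 0.10, and it was -0.094 when scaled by library size only. The condensin genes Smc2 and Smc4 were at 0.30 and 0.32.

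**Figure D2:**
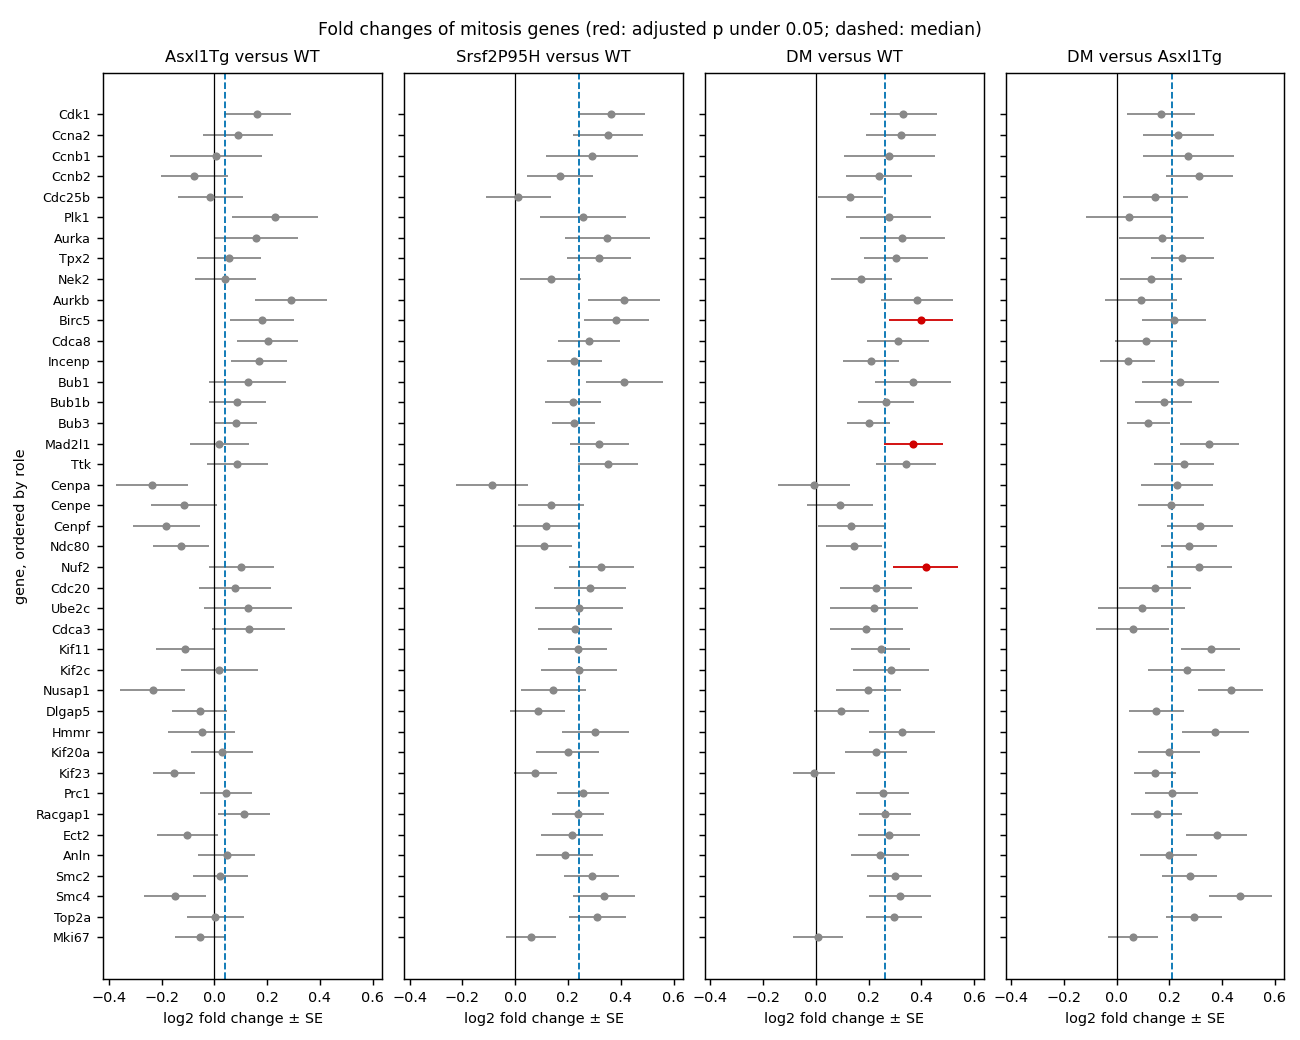
Log2 fold change with its SE (points and bars) of each of the 41 mitosis genes in 4 comparisons, from the edgeR fit on all 16 libraries, with the median of the 41 dashed. Red points (Nuf2, Mad2l1 and Birc5 in DM versus WT) have an adjusted p under 0.05. The medians are 0.04, 0.24, 0.26 and 0.21 from left to right.

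None of the genes of anaphase, spindle motors and cytokinesis among the 41 passed the edgeR test in DM against WT. Cdc20, the activator that hands targets to the anaphase-promoting complex, its ubiquitin-conjugating enzyme Ube2c and the mitotic entry factor Cdca3 had log2 fold changes of 0.23, 0.22 and 0.19. Kif11, the motor that separates spindle poles, was at 0.25, Kif2c, a microtubule-depolymerising kinesin, at 0.28, and Hmmr, a spindle-associated hyaluronan receptor, at 0.33. The microtubule-binding proteins Nusap1 and Dlgap5 were at 0.20 and 0.10. For cytokinesis, the midzone bundler Prc1 was at 0.25, the motor Kif20a at 0.23, Racgap1 and Ect2, which activate RhoA at the division plane, at 0.26 and 0.28, and the contractile ring protein Anln at 0.24. Kif23, the partner of Racgap1 in centralspindlin, was at 84.0, 88.7, 75.6 and 88.8 CPM in DM mice, against 83.9, 79.5, 81.2 and 94.3 CPM in WT mice (log2 fold change -0.01, adjusted p = 0.961).

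In Asxl1Tg against WT, mitosis genes lay on both sides of zero. The median log2 fold change was 0.04, 27 of the 41 were positive and none passed the test, against a median of -0.04, 44.7% positive, 1.12% called higher and 0.76% called lower over all genes. The median was 0.12 with 29 positive without Asxl1Tg 2 and -0.024 with 17 positive without WT 3. DESeq2 and limma-voom called none, against 5.26% of 19615 genes and 2.55% of all genes called higher. At an unadjusted p under 0.05, 1 member, Aurkb, was higher and 0 were lower, against 10.4% and 11.1% of all genes. The groups overlapped for every one of the 41, and 3.7% of all genes were higher in Asxl1Tg without overlap. Aurkb was at 112, 70.3, 93.9 and 103 CPM in Asxl1Tg mice 1 to 4, against the WT values given above (log2 fold change 0.29, SE 0.14, adjusted p = 0.229). Asxl1Tg 2 lay within the WT range and the other 3 above it, and without Asxl1Tg 2 Aurkb passed the test (adjusted p = 0.0426). That was the only 1 of 26 alternatives in which Aurkb passed, and its highest edgeR, DESeq2 or limma-voom adjusted p among them was 0.463. Since the library left out was the lowest of its group, that run adds no support. The other members of the passenger complex had log2 fold changes of 0.18 (Birc5), 0.20 (Cdca8) and 0.17 (Incenp). Below zero were Cenpa (-0.24), Nusap1 (-0.23), Cenpf (-0.18), Kif23 (-0.15), Smc4 (-0.15) and Ndc80 (-0.13). Kif23 was at 85.0, 73.7, 72.6 and 73.4 CPM in Asxl1Tg mice, with Asxl1Tg 1 alone within the WT range (adjusted p = 0.282).

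Of the genes with a value in every library, Plk1 was at 69.1, 40.5, 67.8 and 65.0 CPM in Asxl1Tg mice (log2 fold change 0.23, adjusted p = 0.439), with Asxl1Tg 2 below all WT values and the other 3 above them. Cdk1 was at 125, 86.3, 117 and 112 CPM (log2 fold change 0.16, adjusted p = 0.487) and Bub1b at 168, 115, 153 and 139.8 CPM (log2 fold change 0.09, adjusted p = 0.678), in both cases with Asxl1Tg 2 the lowest of its group. Ccnb1 at 80.7, 54.6, 78.1 and 77.3 CPM and Top2a at 908, 704, 853 and 843 CPM had log2 fold changes of 0.01 and 0.0035, and both turned negative when scaled by library size only. Mki67 was at 1069, 916, 1199 and 942 CPM, with a log2 fold change of -0.06.

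**Figure D3:**
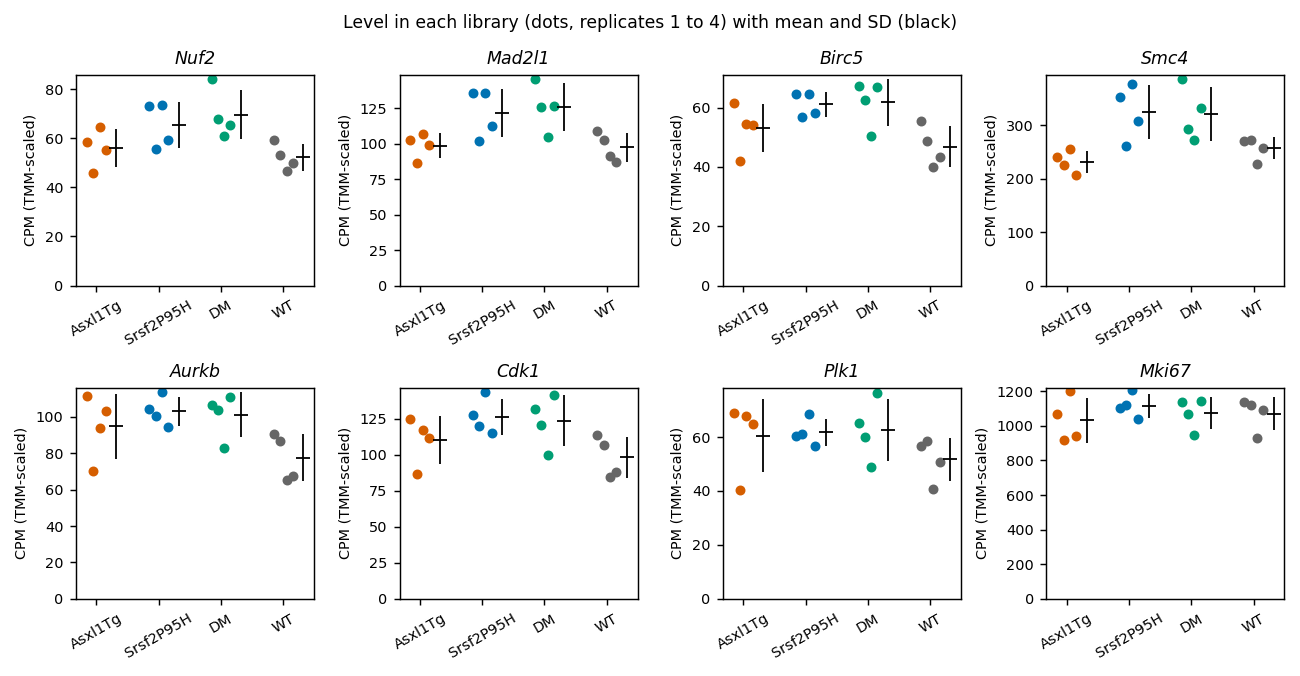
CPM of 8 mitosis genes in each library (dots, replicates 1 to 4 from left to right in a group) with the group mean and SD (black), on axes that start at 0. In the Nuf2 panel all 4 DM dots lie above all 4 WT dots, and in the Mki67 panel all 4 groups overlap.

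The comparison of DM with Asxl1Tg asks what the Srsf2 mutation adds in mice with the transgene. All 41 mitosis genes had a positive log2 fold change (49.5% of all genes did), from 0.04 for Incenp to 0.47 for Smc4, with a median of 0.21, against -0.0036 over all genes. The median was 0.13 with 36 positive without Asxl1Tg 2, 0.13 with 37 positive without DM 4, and 0.14 with 37 positive when scaled by library size only. None passed the test, with 0.848% of all genes called higher and 0.229% lower, and 13 were higher and 0 lower at an unadjusted p under 0.05, against 10.6% and 7.19% of all genes. DESeq2 and limma-voom each called Smc4 and Nusap1, against 3.81% of 18736 genes and 3.42% of all genes higher. Smc4, a core subunit of condensin (chromosome 3, 69004738 to 69034623), was at 386, 292, 273 and 332 CPM in DM mice, against 241, 225, 255 and 206 CPM in Asxl1Tg mice, with no overlap (log2 fold change 0.47, SE 0.12, edgeR adjusted p = 0.0606). Nusap1, which binds spindle microtubules around chromosomes (chromosome 2, 119618298 to 119651244), was at 127.7, 119, 104 and 140.3 CPM in DM mice, against 98.3, 85.4, 104 and 76.8 CPM in Asxl1Tg mice, also with no overlap, although DM 3 lay only just above Asxl1Tg 3 (log2 fold change 0.43, SE 0.12, adjusted p = 0.0909). The groups did not overlap for these 2 genes of the 41, against 7.35% of all genes.

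By role, with no test of the differences between roles, the median log2 fold change in DM against Asxl1Tg was 0.36 for spindle motors and microtubule-binding proteins, 0.29 for chromosome structure, 0.27 for centromere and kinetochore genes, 0.24 for checkpoint genes and 0.23 for entry genes. It was 0.20 for midzone and cytokinesis genes, 0.15 for mitotic kinases and partners, 0.10 for the passenger complex and 0.09 for the group of Cdc20, Ube2c and Cdca3. Kif11 (0.36), Hmmr (0.37), Ect2 (0.38), Mad2l1 (0.35), Cenpf (0.32), Nuf2 (0.31), Top2a (0.29), Ccnb1 (0.27) and Bub1b (0.18) had larger values than Cdk1 (0.17), Aurkb (0.09), Plk1 (0.05) and Mki67 (0.06). Plk1 and Mki67 turned to -0.023 and -0.0098 when scaled by library size only. DM against WT and DM against Asxl1Tg share the DM libraries, and the 2 comparisons with WT share the WT libraries, so these values are not independent of each other.

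In DM against Srsf2P95H, no mitosis gene passed the test with edgeR, DESeq2 or limma-voom, and none had an unadjusted p under 0.05. Over all genes, 0.215%, 0.903% (of 21817 genes for DESeq2) and 0.391% were called higher by the 3 tools and 0.0308% lower by edgeR. At an unadjusted p under 0.05, 3.93% were higher and 2.55% lower. The groups overlapped for all 41, and 2.86% of all genes were higher in DM without overlap. The median log2 fold change was 0.01, with 22 of 41 positive against 47.5% of all genes, and the 41 values ran from -0.08 to 0.12. Single libraries moved these values, to a median of -0.040 with 6 positive without Srsf2P95H 4 and of 0.085 with 40 positive without DM 3. With SEs of 0.08 to 0.17 for the 41 genes, differences of this size could not have been detected. Kif23 had the smallest p, at 84.0, 88.7, 75.6 and 88.8 CPM in DM mice, against 82.9, 92.6, 98.9 and 83.1 CPM in Srsf2P95H mice (log2 fold change -0.08, SE 0.08, adjusted p = 0.986). Cdc25b was next, at 41.3, 37.3, 35.2 and 43.6 CPM in DM mice, against 33.9, 37.7, 43.6 and 29.8 CPM in Srsf2P95H mice, with wide overlap (log2 fold change 0.12, SE 0.12, adjusted p = 0.989).

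The interaction term, the log2 level in DM minus Asxl1Tg minus Srsf2P95H plus WT, asks whether the mutations together differ from the sum of each alone. No mitosis gene passed the test with edgeR, DESeq2 or limma-voom, and none had an unadjusted p under 0.05. Over all genes the 3 tools called 0%, 0.15% (of 22700 genes for DESeq2) and 0.0132% with a positive term, and edgeR called 0% with a negative one. At an unadjusted p under 0.05, 5.93% had a positive and 5.81% a negative term. The median term of the 41 was -0.01 (17 positive), against 0.03 over all genes, with 53.5% positive, and with 1 library left out it ran from -0.097 (without Asxl1Tg 2) to 0.048 (without DM 3). The smallest p-values were those of Aurkb, with a term of -0.32 (SE 0.19, adjusted p = 0.535), and Nusap1, with a term of 0.29 (SE 0.17, adjusted p = 0.537). The mean of Aurkb was 101 ± 12.4 CPM in DM, 94.8 ± 17.8 CPM in Asxl1Tg, 103 ± 7.98 CPM in Srsf2P95H and 77.5 ± 12.9 CPM in WT, so all 3 mutant means lay above WT. For Nusap1 the means were 123 ± 15.1, 91.1 ± 12.4, 118 ± 21.3 and 107 ± 8.87 CPM in the same order, with Asxl1Tg the lowest. The SE of the term ran from 0.11 to 0.25 over the 41 genes.

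Much of the variation was shared by the 41 genes within a library. DM 3 was the lowest DM library for all 41 genes, WT 3 the lowest WT library for 35 and Asxl1Tg 2 the lowest Asxl1Tg library for 33, while Srsf2P95H 3 was the highest Srsf2P95H library for 39. Summed over the 41 genes, the levels were 5879, 4589, 5843 and 5144 CPM in Asxl1Tg mice 1 to 4, 6423, 5905, 7048 and 5665 CPM in Srsf2P95H mice, 6754, 6158, 5291 and 6697 CPM in DM mice and 5821, 5649, 4720.4 and 5283 CPM in WT mice. The lowest library of DM thus lay below 2 WT libraries, and the lowest of Asxl1Tg below all of them. The 41 genes are for this reason not 41 independent observations of a genotype.

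Other transcripts moved with these libraries. The 10 LSK-defining genes summed to their group's highest level in the same 3 low libraries (2945 CPM in Asxl1Tg 2, 3530 CPM in DM 3 and 3782 CPM in WT 3), within group ranges of 2368 to 2945 CPM in Asxl1Tg, 2952 to 3530.4 CPM in DM and 2911 to 3782 CPM in WT. The 9 neutrophil and granule genes, such as Mpo and Elane, summed to their group's lowest level there (2065 CPM in Asxl1Tg 2, 3552 CPM in DM 3 and 1075 CPM in WT 3). Their ranges were 2065 to 5205 CPM in Asxl1Tg, 4272 to 6032 CPM in Srsf2P95H, 3552 to 6698 CPM in DM and 1075 to 4248 CPM in WT, and none of the 9 was at 0. In Srsf2P95H the lowest mitosis sum was in mouse 4 and the lowest granule sum in mouse 1, and the LSK-defining sums ran from 2760.3 to 3267 CPM. As a share of unscaled counts, the mitosis genes were lower in Srsf2P95H mouse 2 (0.557%) than in mouse 4 (0.573%). Of the 9 granule genes, 7 had a positive log2 fold change in DM against WT and 7 in Srsf2P95H against WT, 3 of them at an unadjusted p under 0.05 in each, against 15.2% and 14.2% of all genes higher at that p, and none was called. Immediate-early sums were the highest of their group in Asxl1Tg 2 (7192 CPM) and WT 3 (9662 CPM). This was not so in DM 3 (1652 CPM, in a DM range of 1311 to 2359 CPM), and in Srsf2P95H the highest was mouse 2. The part of granule-bearing progenitors or of cell handling in the mitosis differences was not tested. WT 4, with the highest B lineage and eosinophil sums, had a mitosis sum between those of WT 3 and WT 2. That rank rests on TMM scaling, whose factor was 1.13 in WT 4, the largest of the 16 libraries. Of unscaled counts, the mitosis genes made up 0.595% in WT 4, against 0.587%, 0.567% and 0.486% in WT 1, 2 and 3.

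**Figure D4:**
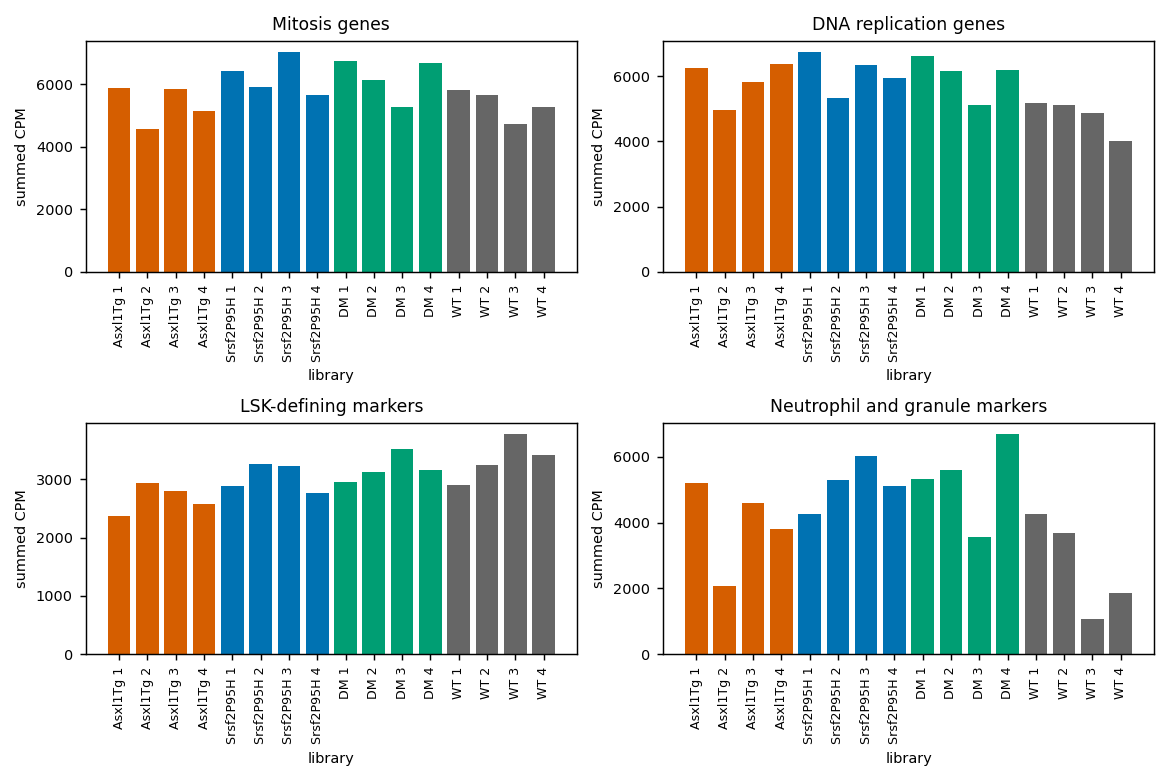
Summed CPM in each of the 16 libraries for the mitosis genes, the DNA replication genes, the LSK-defining markers and the neutrophil and granule markers, as bars from 0. Asxl1Tg 2, DM 3 and WT 3 have the lowest mitosis and granule sums of their groups and the highest sums of LSK-defining markers.

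Within the marker lists, of 5 to 10 genes each, few genes passed the test. Over all genes, 4.65% were called higher and 4.73% lower in DM against WT, so calls among markers are not particular to them. In DM against WT, Slamf1 (CD150, a marker of long-term stem cells) rose to 9.74 ± 2.53 CPM in DM, against 4.76 ± 0.813 CPM in WT (adjusted p = 0.0121). Itga2b (CD41) rose to 146 ± 15.7 CPM, against 104 ± 25.7 CPM in WT (adjusted p = 0.0455), while Flt3, a receptor of multipotent and lymphoid progenitors, fell to 289 ± 58.6 CPM in DM, against 558 ± 169 CPM in WT (adjusted p = 0.0239). The natural killer receptor gene Ncr1 fell too, at under 1 CPM in both group means (adjusted p = 0.0241). No marker was called in the other comparisons of mutant with WT or of DM with a single mutant. In those comparisons 0.0308% to 1.12% of all genes were called in either direction. Summed levels of the remaining lists were 109 to 533 CPM for erythroid genes, 98.5 to 335 CPM for monocyte and macrophage genes, 109 to 599 CPM for mast cell and basophil genes, 116 to 450.0 CPM for megakaryocyte genes and 3.46 to 11.0 CPM for T and NK genes over the 16 libraries. Of the last list, 4 of 8 genes were under 1 CPM in every library.

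DNA replication genes act in S phase before mitosis. All 33 listed genes had a positive log2 fold change in Asxl1Tg, Srsf2P95H and DM against WT, with medians of 0.30, 0.35 and 0.33, against 0.04, 0.24 and 0.26 for the mitosis genes in the same comparisons. At an unadjusted p under 0.05, 24, 33 and 32 of the 33 were higher, against 10.4%, 14.2% and 15.2% of all genes. In DM against WT, 5 rose, against 4.65% of all genes, among them the DNA polymerase alpha gene Pola1 (log2 fold change 0.43, adjusted p = 0.0369), the replicative helicase genes Gins3 (0.44) and Mcm4 (0.37) and the nucleotide synthesis gene Tyms (0.41). None was called in Asxl1Tg or Srsf2P95H against WT, where the smallest p-values were those of Chaf1a, a histone chaperone subunit (log2 fold change 0.34, adjusted p = 0.0723), and Pola1 (0.47, adjusted p = 0.0580). The summed level of the 33 genes was 5853 ± 639.9 CPM in Asxl1Tg, 6092 ± 613 CPM in Srsf2P95H, 6022 ± 640.4 CPM in DM and 4809 ± 536 CPM in WT (SD, n = 4). The 3 comparisons share the WT libraries, of which WT 4 had the lowest replication sum (4029 CPM). The lowest sums of Asxl1Tg and DM were those of Asxl1Tg 2 (4963 CPM) and DM 3 (5111 CPM), both below WT 1 (5190 CPM). The 33 genes are thus not 33 independent observations of a genotype, and the alternative runs were not summarised for this list. In DM against Asxl1Tg the median was 0.02 for the replication genes (18 of 33 positive) and 0.21 for the mitosis genes. In DM against Srsf2P95H the medians were -0.01 and 0.01. All 33 interaction terms of the replication genes were negative, with a median of -0.31 and 13 at an unadjusted p under 0.05, against 5.81% of all genes with a negative term at that p, and none was called by edgeR.

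**Figure D5:**
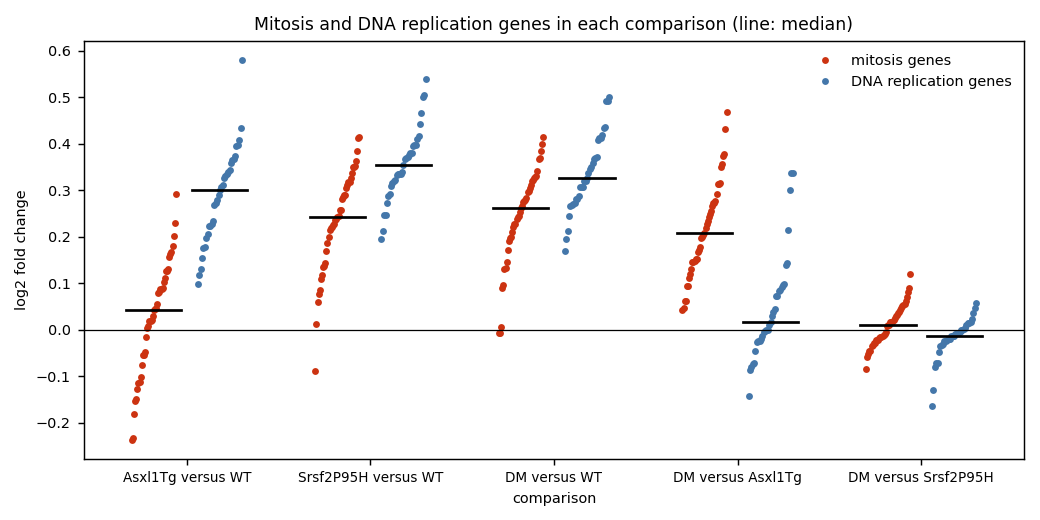
Log2 fold changes of the 41 mitosis genes (red) and 33 DNA replication genes (blue) in 5 comparisons, each point a gene and each line the median of its list. In Asxl1Tg versus WT the medians are 0.04 for mitosis and 0.30 for replication genes, and in DM versus Asxl1Tg they are 0.21 and 0.02.

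The wider mitotic machinery was given by 6 further lists. Their counts in DM against WT stand beside 4.65% of all genes called higher and 15.2% higher at an unadjusted p under 0.05. In Asxl1Tg against WT, 1.12% of all genes were called higher and 0.76% lower. Called higher were 0.264% in Srsf2P95H against WT and 0.848% in DM against Asxl1Tg. Among 18 regulators of the mitotic programme, 4 rose in DM against WT: E2f7 (0.45, a repressor of the E2F family), Tfdp1 (0.49, the partner of E2F proteins), the pocket protein gene Rbl1 (0.34) and Lin54 (0.33), the MuvB subunit that binds CHR elements. In Asxl1Tg against WT, E2f7 rose (40.4 ± 3.70 CPM in Asxl1Tg, against 30.8 ± 2.06 CPM in WT, adjusted p = 0.0495). Rbl2, the pocket protein of the repressive DREAM complex in resting cells, fell to 85.6 ± 7.73 CPM in Asxl1Tg, against 109.9 ± 9.13 CPM in WT (log2 fold change -0.36, adjusted p = 0.0366). In Srsf2P95H against WT none of the 18 was called, Lin54 having the smallest p (log2 fold change 0.40, adjusted p = 0.0551). The 19 genes of the anaphase-promoting complex and separase included 2 that rose in DM against WT, Cdc16 (0.31) and Anapc1 (0.25), both subunits of the complex. Of 30 other kinetochore and centromere genes, Cenph (0.53) and Zw10 (0.24) rose in DM against WT.

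Of 26 other spindle, centrosome and midbody genes, Cep55, which organises the midbody at abscission, rose in Srsf2P95H (39.5 ± 3.92 CPM, against 27.1 ± 2.54 CPM in WT, adjusted p = 0.0388) and in DM (37.3 ± 4.15 CPM, adjusted p = 0.0210). Haus8, a subunit of the augmin complex, rose in Asxl1Tg (26.8 ± 2.69 CPM, against 20.6 ± 1.65 CPM in WT, adjusted p = 0.0486) and in DM (27.5 ± 2.91 CPM, adjusted p = 0.0163). None of the 15 other condensin and cohesin genes and none of the 15 genes of entry and exit kinase control was called by edgeR. Their smallest adjusted p in DM against WT was that of Ncaph (0.28, adjusted p = 0.0632) and Cks2 (0.39, adjusted p = 0.0643), with 3 and 5 genes higher at an unadjusted p under 0.05. In DM against Asxl1Tg it was that of Stag2, a cohesin subunit (0.39, adjusted p = 0.0506), and Mastl (0.30, adjusted p = 0.221). Of the 19 G1 cyclins, CDK inhibitors and quiescence genes, Cdkn2a and Cdkn2b were too low to test. Ccng1, a p53 target, rose to 106 ± 6.83 CPM in DM, against 73.3 ± 2.69 CPM in Asxl1Tg (adjusted p = 0.00886) and 79.1 ± 4.33 CPM in WT (adjusted p = 0.00663). The median log2 fold changes of the listed G1 genes were -0.11 in Asxl1Tg, -0.03 in Srsf2P95H and 0.03 in DM, each against WT.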

How the data were processed

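RNA of 16 LSK samples, 4 mice per genotype, was sequenced with paired reads, per the labels' protocols. The authors' deposited table holds unnormalized counts for each gene symbol and sample. Per the submitters' processing notes, reads were handled with HTSeq 0.11.2, STAR 2.7.0e, Trimmomatic 0.38 and FastQC on the mm10 build. The sources used here give neither a strand setting nor an annotation release. Columns were matched to samples by their prefixes, and the abbreviated Asxl1Tg prefix was assigned because the other 3 match other titles. The design text counts 3 DM samples, whereas 4 are labelled and all 4 were used.

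The test on counts was that of edgeR 4.0.16, run in R 4.3.3 (filterByExpr with minimum count 10, TMM, robust quasi-likelihood fit on all 16 libraries, 6 comparisons), with p adjusted by Benjamini-Hochberg over 22749 genes and calls at an adjusted p under 0.05. SE is the log2 fold change divided by the root of F. DESeq2 1.42.0 and limma 3.58.1 were alternatives, limma-voom with a quality weight for each library, so that libraries did not count equally in it. DESeq2 gave an adjusted p to 16979 to 22700 of the 22749 genes, depending on the comparison, and its shares are of those genes. The median SE of the 41 genes was 0.12 in DM against WT, and 0.23 over all genes tested, so changes near these sizes were not detectable. The method was also run on simulated data with 200 changed genes, whose changes (at least 1.5-fold, up or down) exceeded those of the 41 genes. That run does not show how well changes of the size seen in the 41 genes are detected.

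The genes and lists were chosen with earlier results of these data known. Values in every library are given for 7 set genes, the 2 smallest p-values of each comparison and called genes. Of the called replication genes, 1 is not reported here. Same-numbered libraries correlated at -0.29 to 0.30 after removal of group means, and 5 of 24 pairs exceeded 0.1, so replicate numbers were not used as pairs.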

Additional observations from a re-analysis of the deposited data

Results flagged for a closer look

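In each genotype, a library was singled out where its gap to the nearest of the other 3, as a share of the group's range, exceeded Dixon's 95% critical value for 4 samples, which chance passes in about 1 in 20 groups. Of 164 combinations of a mitosis gene and a genotype, 6 did so. Ccnb1 was at 54.6 CPM in Asxl1Tg 2, against 77.3 to 80.7 CPM in the other Asxl1Tg libraries. Plk1 was at 40.5 CPM in the same library, against 65.0 to 69.1 CPM in the others. Cenpa was at 49.1 CPM in Asxl1Tg 4, against 61.1 to 62.4 CPM, and Kif23 was at 85.0 CPM in Asxl1Tg 1, the only high value, against 72.6 to 73.7 CPM. In WT 3, Cenpe was at 85.3 CPM, against 114 to 120 CPM in the other WT libraries, and Prc1 was at 68.6 CPM, against 81.7 to 82.1 CPM. No interaction term of a mitosis gene passed the test, so no difference between the effects of the mutations was singled out.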

How the results depend on the processing

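Of the 6 counts of mitosis genes called, those for DM against Srsf2P95H and for the interaction were 0 under every alternative run. In DM against WT the 3 calls became 0 with scaling by library size only, 0 under a filter of 1 CPM in 4 libraries, 0 without WT 4 and Srsf2P95H 2, 1 with RLE factors, 1 in a fit of the compared groups only and 10 with limma-voom, and DESeq2 gave 4. In Srsf2P95H against WT the count of 0 became 4 with DESeq2 and 1 with limma-voom. In DM against Asxl1Tg it became 2 with DESeq2, 2 with limma-voom, 2 with Xist as a covariate and 1 without WT 4 and Srsf2P95H 2. Leaving out 1 library at a time gave 0 to 15 calls in DM against WT, 0 to 4 in Srsf2P95H against WT, 0 to 1 in Asxl1Tg against WT and 0 to 1 in DM against Asxl1Tg. The largest counts came without DM 3 (15) and Srsf2P95H 2 (4), and 0 calls in DM against WT came without Asxl1Tg 4, DM 1, DM 2, DM 4, WT 2, WT 3 or WT 4. With a replicate block the count in DM against WT was 4, and no other count changed. The best correlation was with a library of the same number for 3 of 16 libraries. No member was called lower in any run. Among the alternatives, the share of all genes called is given above for DESeq2 and limma-voom alone. For the other runs it is not given here, so changes in their counts cannot be read as particular to the mitosis genes. With 1 library left out, the median log2 fold change of the 41 genes was -0.024 to 0.12 in Asxl1Tg against WT, 0.13 to 0.29 in DM against Asxl1Tg and -0.040 to 0.085 in DM against Srsf2P95H.

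Library size scaling moved the median of all genes to -0.16 in Srsf2P95H against WT and -0.12 in DM against WT, and that of the mitosis genes to 0.13 and 0.16. With it, log2 fold changes turned to -0.024 for Top2a and -0.020 for Ccnb1 in Asxl1Tg against WT, -0.051 for Mki67 in Srsf2P95H against WT, -0.094 for Mki67 in DM against WT, and -0.0098 for Mki67 and -0.023 for Plk1 in DM against Asxl1Tg. In Asxl1Tg against WT, Top2a and Ccnb1 also turned to -0.012 and -0.0011 with limma-voom and to -0.029 and -0.028 without WT 4 and Srsf2P95H 2. The filter of 1 CPM turned Mki67 in DM against WT to -0.043 and Plk1 in DM against Asxl1Tg to -0.0032. Over single libraries left out, these and other values near zero crossed it: Top2a (-0.037 to 0.074) and Ccnb1 (-0.13 to 0.13) in Asxl1Tg against WT, Mki67 in Srsf2P95H (-0.00045 to 0.096) and in DM (-0.054 to 0.064) against WT, and Plk1 (-0.10 to 0.15) and Aurkb (-0.025 to 0.18) in DM against Asxl1Tg. The cause was not tested for any of these. Depth limits little here, since every member held at least 2674 counts in every library.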
